A study of Sus scrofa with 12 samples.

Results

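Complement is a cascade of serum and cell surface proteins, and 9 of its genes (C1R, C1S, C2, C3, C5, C7, CFB, CFI and SERPING1) were followed in whole ovaries of 12 New French Yorkshire gilts, which are young female pigs (Sus scrofa). In the 6 ES gilts 2 consecutive estrus cycles had been recorded, and slaughter followed in the third estrus. In the 6 NES gilts, each a full sister of an ES gilt from the same litter, estrus was never recorded. No gilt is labelled as treated or genetically altered, and the age at slaughter is not given in the sources used here. Each library was made from total RNA of a left ovary after removal of ribosomal RNA, so follicles, luteal tissue, stroma, vessels and blood cells all add to a value, and a change in the number of cells of a type cannot be told apart from a change in RNA per cell. Genes were chosen by symbol. Of the 9 symbols, 6 name a row of the deposited table of 29150 loci. CFI was found by its Ensembl identifier, and C2 and CFB, neighbours in the genome, lie in 1 joined row whose value cannot be divided between them. The 9 genes are thus represented by 8 loci, and all 8 passed the expression filter of a mean FPKM of at least 0.5 that left 20421 loci for testing.

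Complement can be started by antibody (the classical pathway), by sugars (the lectin pathway) or by slow spontaneous turnover (the alternative pathway). All routes cleave C3, the central component, and then C5, after which C6, C7, C8 and C9 assemble a pore in a target membrane. Soluble and membrane-bound regulators hold the cascade in check. The liver makes most of the serum proteins, and many tissues, the ovary among them, also transcribe some components locally. Complement proteins are present in follicular fluid.

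Libraries held 58140547 to 68961955 counts. Levels within a gene are given as CPM, counts scaled to library size with TMM factors, and levels of different genes are compared as deposited FPKM, which takes locus length into account. Across the whole table, 193 loci (0.945% of those tested) passed an adjusted p of 0.05 between ES and NES, with 31 higher and 162 lower in ES. The ovarian character of the libraries is seen in the granulosa gene INHA, which averaged 340.0 FPKM, and the oocyte gene GDF9, at 2.85 FPKM. INHA was uneven, with 10.7 CPM in ES3, against 158 to 925 CPM in NES libraries. ES3 stands apart in the macrophage and monocyte markers, which summed to 1085 CPM in that library, 132 CPM in the next highest ES library and 66.3 to 164 CPM in the NES libraries. ES3 also had the lowest summed theca markers of the ES group (6.55 CPM, against 166 to 281 CPM in NES libraries) and the lowest summed granulosa markers (107 CPM, against 833 to 2468 CPM in NES libraries).

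The complement genes differed widely in abundance. C7 was the most abundant of the 8 loci, with a median of 102 FPKM over the 12 libraries and a mean above that of 99.7% of all tested loci. SERPING1 (median 20.1 FPKM), C3 (18.3 FPKM), C1R (13.9 FPKM) and C1S (13.0 FPKM) formed the middle tier. CFI (3.49 FPKM), the C2/CFB locus (1.10 FPKM) and C5 (0.883 FPKM) were low. C7 lay above SERPING1 in 12 of 12 libraries, C1S above CFI in 12 and CFI above C2/CFB in 11. Within the middle tier the order was less steady. SERPING1 exceeded C3 in 7 of 12 libraries, C3 exceeded C1R in 10 and C1R exceeded C1S in 6.

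Between ES and NES, none of the 8 loci passed the test over all loci (quasi-likelihood test of edgeR, p-values adjusted by Benjamini-Hochberg, the smallest being 0.244 for C1S), and DESeq2 and limma called none. C1S and C2/CFB had an unadjusted p under 0.05, as did 16.3% of all tested loci. Both were higher in ES, and 9.50% of all tested loci had such a p and a higher level in ES. The unadjusted p of C2/CFB was 0.143 without ES3 and 0.120 with limma on log2(FPKM + 0.5), and that of C1S with limma was 0.0512. The log2 difference, ES minus NES, was positive for 7 of the 8 loci, with a median of 0.40, where 56.2% of all tested loci were positive and their median was 0.04. No member had ES and NES values free of overlap, a pattern seen at 1.42% of tested loci.

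**Figure D1:**
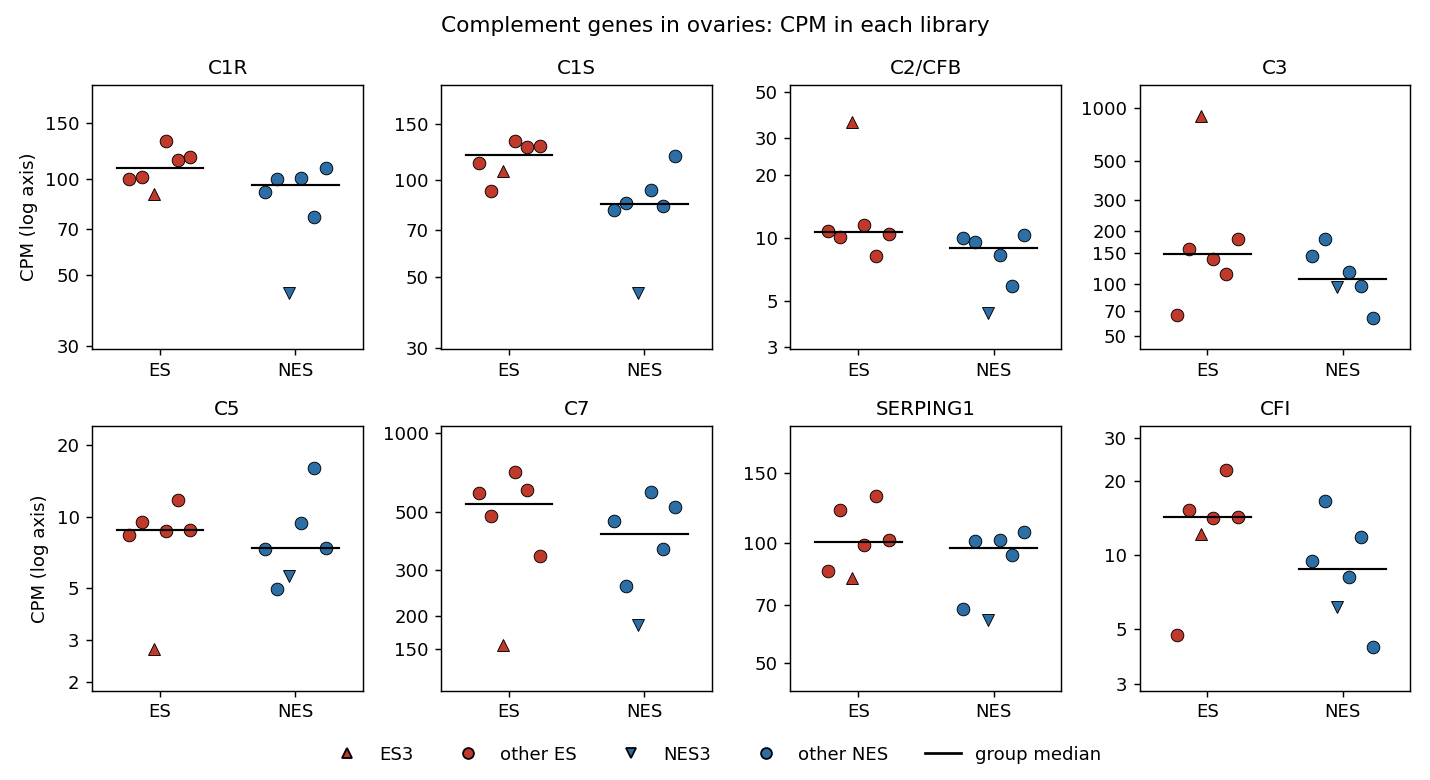
CPM of the 8 complement loci in each of 6 ES and 6 NES libraries, 1 panel per locus on a log axis, with a line at the group median. The ES3 point (upward triangle) is the highest for C3 (902 CPM) and C2/CFB (35.9 CPM) and the lowest for C5 (2.76 CPM) and C7 (156 CPM). The NES3 point (downward triangle) is the lowest for C1R, C1S, C2/CFB and SERPING1.

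C1R and C1S encode the paired serine proteases of the C1 complex, in which C1r activates C1s and C1s then cleaves C4 and C2. C1S (MSTRG.17330, Sscrofa11.1 chromosome 5, 63667706 to 63681599, minus strand) measured 92.6, 120.2 and 132 CPM as the lowest, median and highest ES library, against 44.6, 84.2 and 119 CPM in NES. All 6 ES libraries lay above the NES median and 3 of them above every NES library, so the groups overlapped in part. The means were 117 ± 15.3 CPM in ES, against 84.4 ± 24.0 CPM in NES (n = 6 each, ± SD), a log2 difference of 0.47 ± 0.19 (SE). In folds this is 1.38, with a 95% interval of 1.04 to 1.83, which is not adjusted for the number of loci (unadjusted p = 0.0271, adjusted p = 0.244, edgeR). C1R (MSTRG.17328, chromosome 5, 63644246 to 63681418, plus strand) measured 90.0, 108 and 131 CPM in ES, against 44.0, 95.6 and 108 CPM in NES. Its means of 109 ± 14.8 CPM in ES, against 86.7 ± 23.7 CPM in NES, gave a log2 difference of 0.33 ± 0.19 (adjusted p = 0.405). Both genes were lowest in NES3, at 44.0 CPM for C1R and 44.6 CPM for C1S. Without NES3 the log2 differences were 0.20 for C1R and 0.34 for C1S.

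The profiles of C1R and C1S over the 12 libraries were the closest pair among the members. Their centred log2 CPM values differed by 0.15 (root mean square), where C1R itself varied by 0.39 about its mean. The ratio of C1S to C1R counts was 0.911 to 1.19 in ES libraries and 0.850 to 1.10 in NES libraries. The assembled C1R locus runs past the RefSeq C1R gene (63644097 to 63655149) and covers 98.7% of the C1S locus on the opposite strand. The libraries were strand-specific, but whether the counting used strand is not given in the sources used here, so reads shared by the 2 loci, and the closeness of their profiles, are uncertain.

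C2 carries the protease of the classical and lectin C3 convertase, and CFB (factor B) the protease of the alternative one. The joint C2/CFB locus (MSTRG.20620, chromosome 7, 24020323 to 24041617) spans both RefSeq genes, with C2 at 24020590 to 24034042 and CFB at 24034077 to 24040523. It measured 8.15, 10.6 and 35.9 CPM in ES, against 4.37, 8.90 and 10.3 CPM in NES. Of the ES libraries, 4 lay above every NES library, and the highest, ES3, stood at 3.44 times the median of the other 5. The means were 14.5 ± 10.6 CPM in ES, against 8.05 ± 2.42 CPM in NES, a log2 difference of 0.84 ± 0.37 (adjusted p = 0.276, edgeR). Without ES3 the log2 difference was 0.33, and the ES mean was 10.2 ± 1.25 CPM (n = 5). The locus overlaps NELFE on the opposite strand over 1250 bases, with the same uncertainty about shared reads. NELFE held 186% as many counts as the C2/CFB locus.

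C3, whose cleavage marks targets for uptake and feeds all later steps, had the largest log2 difference of the members and the widest spread. The C3 locus (MSTRG.12372, chromosome 2, 72431163 to 72471621) measured 65.9, 148 and 902 CPM in ES, against 63.2, 107 and 179.9 CPM in NES. A single library, ES3, lay above every NES library, at 6.57 times the median of the other 5 ES libraries, and the rest of the ES values fell within the NES range. The means were 259 ± 317 CPM in ES, against 116 ± 40.9 CPM in NES, with a log2 difference of 1.16 ± 0.56 (adjusted p = 0.325, edgeR). The 95% interval of the fold reached from 0.969 to 5.18. Without ES3 the ES mean was 131 ± 43.8 CPM (n = 5) and the log2 difference 0.17 (adjusted p = 0.847). With limma on log2(FPKM + 0.5) and all libraries it was 0.55.

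The ES3 excess of C3 and C2/CFB stood beside the macrophage and monocyte markers named above. Of the 11 markers with a locus of their own, 9 were tested, all 9 had positive log2 differences with a median of 1.30, and none was called. These differences include ES3, and CD86 (0.720 FPKM in ES, against 0.319 FPKM in NES) passed the filter only through ES. The ES median lay below the NES median for LYZ (2.58 and 2.82 CPM), TYROBP (1.565 and 1.570 CPM) and FCER1G (2.75 and 2.81 CPM). It lay above the NES median for the other tested markers. LYZ, a lysozyme of macrophages, stood at 417 CPM in ES3, and CSF1R, the macrophage growth factor receptor, at 168 CPM. In NES libraries LYZ averaged 2.85 CPM and CSF1R 23.8 CPM. Not every marker rose so far. CD163 (36.5 CPM) and MRC1 (34.4 CPM) in ES3 lay just above their highest NES values of 34.1 and 32.7 CPM. The part of these cells in the C3 and C2/CFB values was not tested.

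C5, from which the chemoattractant C5a is released, was low and had near equal means in both groups. The C5 locus (MSTRG.2079, chromosome 1, 260995666 to 261133505) measured 2.76, 8.77 and 11.8 CPM in ES, against 4.97, 7.36 and 16.1 CPM in NES. The group ranges overlapped in part, with ES3 below every NES library and NES5 above every ES library. The means were 8.33 ± 3.00 CPM in ES, against 8.46 ± 4.04 CPM in NES, with a log2 difference of -0.02 ± 0.34 (adjusted p = 0.985, edgeR), and the 95% interval of the fold was 0.593 to 1.64. Without ES3 the log2 difference turned to 0.16, and without NES5 to 0.26. The RefSeq C5 gene makes up 67.6% of the locus. At its edge the locus shares 275 bases with an opposite-strand locus (ENSSSCG00000032297) that held 522% as many counts as C5, so reads shared there are uncertain too.

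C7, the pore component that anchors the assembling complex in the membrane, was abundant in both groups. The C7 locus (MSTRG.9590, chromosome 16, 25843208 to 25903904) measured 156, 536 and 709.7 CPM in ES, against 186, 412 and 598 CPM in NES. The 2 highest libraries were ES4 and ES5 and the lowest was ES3, with NES3 just above it. The means were 480.4 ± 203 CPM in ES, against 399 ± 158 CPM in NES, with a log2 difference of 0.27 ± 0.35 (adjusted p = 0.753, edgeR), with a 95% interval of the fold of 0.711 to 2.04. Without ES3 the ES mean was 545 ± 141 CPM (n = 5) and the log2 difference 0.45, and without NES3 the log2 difference was 0.12. In ES3, C7 stood at 0.265 times and C5 at 0.313 times the median of the other 5 ES libraries.

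SERPING1 encodes C1 inhibitor, the serpin that inactivates C1r and C1s, and was the steadiest member. The SERPING1 locus (MSTRG.11710, chromosome 2, 13322843 to 13338996) measured 81.7, 100.2 and 131 CPM in ES, against 63.9, 97.2 and 107 CPM in NES. The lowest and the highest of the 12 libraries differed 2.05-fold, and the groups overlapped over most of their range. The means were 103 ± 19.4 CPM in ES, against 89.1 ± 18.5 CPM in NES, with a log2 difference of 0.21 ± 0.16 (adjusted p = 0.556, edgeR). The upper end of the 95% interval of the fold was 1.48.

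CFI, factor I, is the protease that inactivates C3b and C4b with the help of cofactors. Its locus (MSTRG.22695, chromosome 8, 112433640 to 112470946) measured 4.74, 14.3 and 22.3 CPM in ES, against 4.23, 8.81 and 16.6 CPM in NES. Of the ES libraries, 5 lay above the NES median, while ES1 was close to the lowest NES library, NES6. The means were 13.8 ± 5.66 CPM in ES, against 9.42 ± 4.40 CPM in NES, with a log2 difference of 0.56 ± 0.36 (adjusted p = 0.475, edgeR). With each library left out in turn the log2 difference ran from 0.37 to 0.79.

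**Figure D2:**
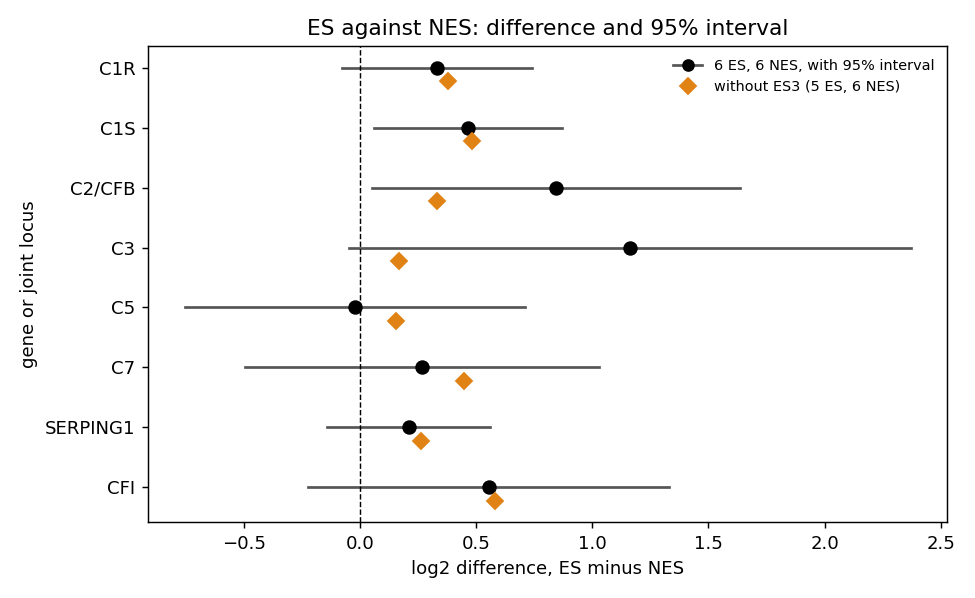
The log2 difference (ES minus NES, edgeR) of the 8 loci, with black points and 95% intervals for 6 ES and 6 NES libraries and orange diamonds for the fit without ES3. C3 shifted most, with 1.16 in the full fit and 0.17 without ES3, and C1S least among the 2 loci whose interval lies above 0, with 0.47 and 0.48.

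Within the groups, members parted by library. ES3 was the highest of the 12 libraries for 2 members, as for 19.7% of tested loci, and the lowest for 2 members, as for 18.9%. Within the ES group it was the lowest for 4 members, where it was so for 24.3% of tested loci. NES3 was the lowest NES library for 5 of the 8 members, where it was the lowest for 17.7% of tested loci. Of all 12 libraries it was the lowest for 4 members, against 8.15% of tested loci. NES3 was also the lowest NES library for 4 of the 12 marker lists. Its summed level was 377 CPM for endothelium (NES median 549 CPM), 241 CPM for the interferon response (310 CPM), 1.63 CPM for epithelium (4.08 CPM) and 0.892 CPM for red blood cells (1.78 CPM). HBB and AHSP of the red blood cell list had 0 CPM in NES3, which does not set it apart. HBB was at 0 in 5 of 6 NES and 3 of 6 ES libraries, and AHSP in 4 and 3. Most of the low red blood cell sum in NES3 was ALAS2, at 0.589 CPM. For other lists NES3 lay above the NES median, with 1535 CPM for granulosa (1102 CPM), 233 CPM for theca (221 CPM) and 9.54 CPM for lymphocytes (8.70 CPM). The remaining lists were below the median in NES3 but not lowest there. The part of any list in the low NES3 values was not tested. SERPING1 differed from C1R by a root mean square of 0.28 and from C1S by 0.31. About their own means SERPING1 varied by 0.29, C1R by 0.39 and C1S by 0.42. C3 lay nearest to C2/CFB (0.60), and C7 nearest to C5 (0.51), while C3 and C7 were the farthest pair at 1.46. These distances describe 12 libraries that share the normalisation, and they carry no test.

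**Figure D3:**
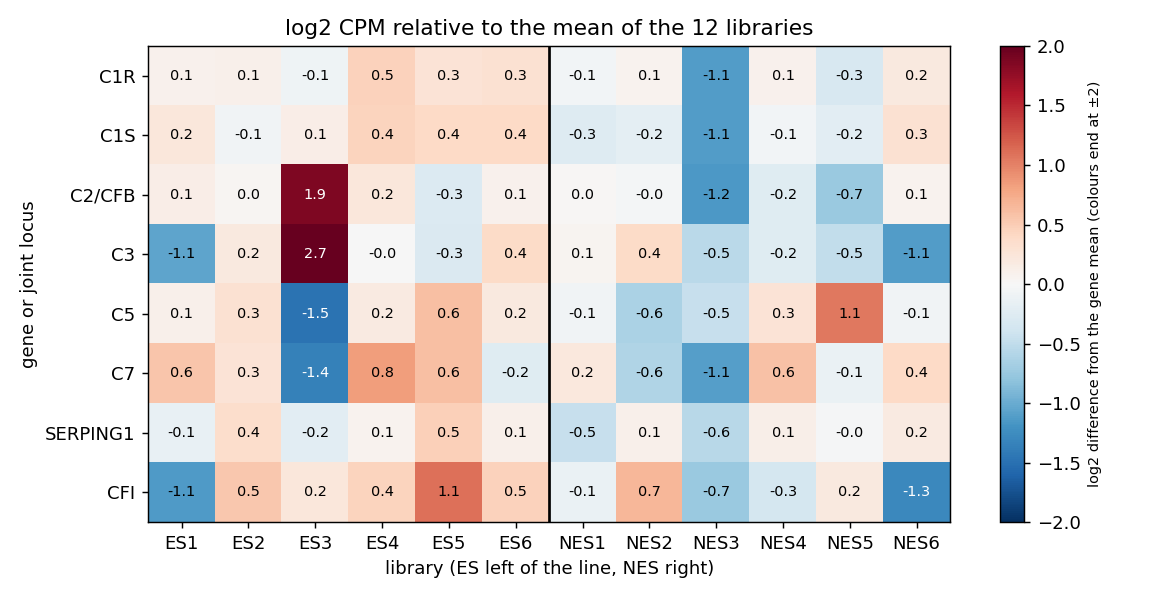
log2 CPM of each locus relative to its mean over 12 libraries, with ES libraries left of the line and NES libraries right of it, and colours ending at ±2. ES3 combines high C3 (2.7) and C2/CFB (1.9) with low C5 (-1.5) and C7 (-1.4), and NES3 is below the gene mean for all 8 loci.

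Among 13711 loci with a symbol of their own and a mean FPKM of at least 1, those with profiles nearest to each member were as follows, by the same root mean square measure. The measure is smaller for members that vary little. SERPING1, which varied least, lay nearest to ISLR, a secreted immunoglobulin-like protein of mesenchymal cells (0.13), and SMARCA2, a chromatin remodelling ATPase (0.14). C1R lay nearest to the mediator subunit MED6 (0.20) and the lipid kinase PIK3C3 (0.21), and C1S to NUDT7 (0.20) and GPM6B (0.21). C2/CFB lay nearest to SLC35E4 (0.21) and OTULINL (0.24), and C3 to RASSF4 (0.38) and the mitochondrial transporter ABCB10 (0.39). C5 lay nearest to the dystrophin gene DMD (0.26) and the serotonin receptor HTR2A (0.31), and C7 to RERG (0.38) and the collagen-modifying enzyme P3H2 (0.39). CFI lay nearest to KIAA0319L (0.44) and decorin (DCN), a matrix proteoglycan (0.45).

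The rest of the pathway was read from a list of 38 further genes. Of these, 28 had a locus of their own, 6 lay in joined loci and 4 were not analysed here. After the expression filter 17 were tested. None passed the edgeR test over all loci. Of the 17, 16 had positive log2 differences, where 56.2% of all tested loci did, and their median was 0.57. At an unadjusted p under 0.05 there were 3 of the 17 (CFP, ITGB2 and CLU), all higher in ES, beside 16.3% of all tested loci in either direction and 9.50% higher in ES. CFP passed the expression filter only through its ES mean (0.838 FPKM, against 0.283 FPKM in NES). Of the 17 genes 11 were highest in ES3, where 19.7% of all tested loci were, and without ES3 the median of the 17 was -0.04.

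C1q, the recognition unit that binds C1r and C1s, is made largely by macrophages, and its 3 chains had like values. C1QB averaged 12.6 ± 13.2 CPM in ES, against 7.66 ± 4.38 CPM in NES, with a log2 difference of 0.71 ± 0.56 (adjusted p = 0.562, edgeR). C1QA differed by 0.57 ± 0.50 (adjusted p = 0.615) and C1QC by 0.56. In ES3 the chains C1QA, C1QB and C1QC stood at 29.2, 39.0 and 42.7 CPM, and the highest value of any chain in the other 5 ES libraries was 11.0 CPM. Without ES3 the 3 log2 differences turned to between -0.27 and -0.04. C4A, the substrate of C1s, lay in a locus joined with the helicase gene SKIV2L, with a log2 difference of -0.04 for both genes together (adjusted p = 0.963).

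Of the lectin pathway, the protease MASP2 averaged 10.8 ± 3.07 CPM in ES, against 9.18 ± 1.55 CPM in NES, with a log2 difference of 0.24 ± 0.20 (adjusted p = 0.584, edgeR), and the ficolin FCN2 differed by 0.41 ± 0.43 (adjusted p = 0.683). MBL2, FCN1, COLEC10 and MASP1 were below the filter. COLEC11 was joined with the ribosomal protein gene RPS7, in a locus with a log2 difference of -0.33 (adjusted p = 0.196, edgeR). In the alternative pathway, properdin (CFP), which steadies the C3 convertase, averaged 5.49 ± 6.39 CPM in ES, against 1.77 ± 0.616 CPM in NES, with a log2 difference of 1.63 ± 0.56 (adjusted p = 0.180, edgeR). Its highest value was 18.3 CPM in ES6, and without ES6 the log2 difference was 0.73. ES6 also stood apart in the summed epithelial and mesothelial markers, at 187 CPM. The next highest ES library had 16.1 CPM and NES libraries 1.63 to 5.44 CPM. All 6 markers with a locus of their own were highest in ES6 and there above every NES library. FOXJ1 held 121 CPM in ES6, CLDN4 25.3 CPM, CDH1 22.4 CPM, EPCAM 9.72 CPM, KRT7 6.29 CPM and UPK3B 2.08 CPM. The part of these markers in the CFP value was not tested. DESeq2 called CFP (adjusted p = 0.0419), the only one of the 17 genes it called, and gave no adjusted p for CLU or for 5 of the receptors. Factor D (CFD) lay in a locus joined with ELANE, with a log2 difference of 0.32 (adjusted p = 0.382, edgeR).

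Of the terminal pathway no further gene with a locus of its own was tested. C6, C8A and C8B were below the filter, with C6 at 1.39 ± 0.549 CPM in ES, against 1.34 ± 0.619 CPM in NES, and C9 was joined with DAB2. The joint C9 and DAB2 locus had a log2 difference of 0.66 (adjusted p = 0.189, edgeR), with 5 of 6 ES libraries above every NES library, and cannot be divided between the genes. In FPKM, C6 averaged 0.385 over all libraries, while C7, its partner in the same complex, averaged 93.2.

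Clusterin (CLU), which blocks the insertion of the pore and also serves as an extracellular chaperone, averaged 409 ± 797 CPM in ES, against 88.6 ± 41.9 CPM in NES, with a log2 difference of 2.21 ± 0.93 (adjusted p = 0.262, edgeR). ES3 held 2034 CPM and the next highest ES library 148 CPM. Without ES3 the log2 difference turned to -0.07. Vitronectin (VTN), another inhibitor of the pore, differed by 0.20 ± 0.19 (adjusted p = 0.648). The membrane regulators varied less. CD59, which stops pore assembly on host cells, averaged 118 ± 48.7 CPM in ES, against 89.7 ± 15.6 CPM in NES, with a log2 difference of 0.40 ± 0.23 (adjusted p = 0.400, edgeR). The highest CD59 value was 212 CPM in ES4, and with 1 library left out the log2 difference ran from 0.15 to 0.50. CD46, a cofactor for factor I, differed by 0.21 ± 0.13 (adjusted p = 0.447) and CD55, which takes apart the convertases, by -0.09. Without ES1, where CD46 stood at 297 CPM, the CD46 difference was 0.10.

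Receptors for complement fragments, apart from C5AR2, showed the same single-library pattern as C3. ITGB2, the shared chain of complement receptors 3 and 4, averaged 31.5 ± 50.3 CPM in ES, against 9.69 ± 4.17 CPM in NES, with a log2 difference of 1.70 ± 0.71 (adjusted p = 0.257, edgeR). C3AR1, the C3a receptor, differed by 1.36 ± 0.65 (adjusted p = 0.322). All 6 receptor genes tested (C3AR1, C5AR1, C5AR2, VSIG4, ITGAM and ITGB2) were highest in ES3. The C5a receptor C5AR1 stood at 68.8 CPM there and between 2.63 and 3.00 CPM in the other 5 ES libraries. Without ES3 the log2 differences of the 6 lay between -0.42 and 0.18. C5AR2 had no ES excess in the full fit, with 0.03, and -0.30 without ES3. Several of these receptors are themselves macrophage genes, and the part of such cells in their values was not tested.

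**Figure D4:**
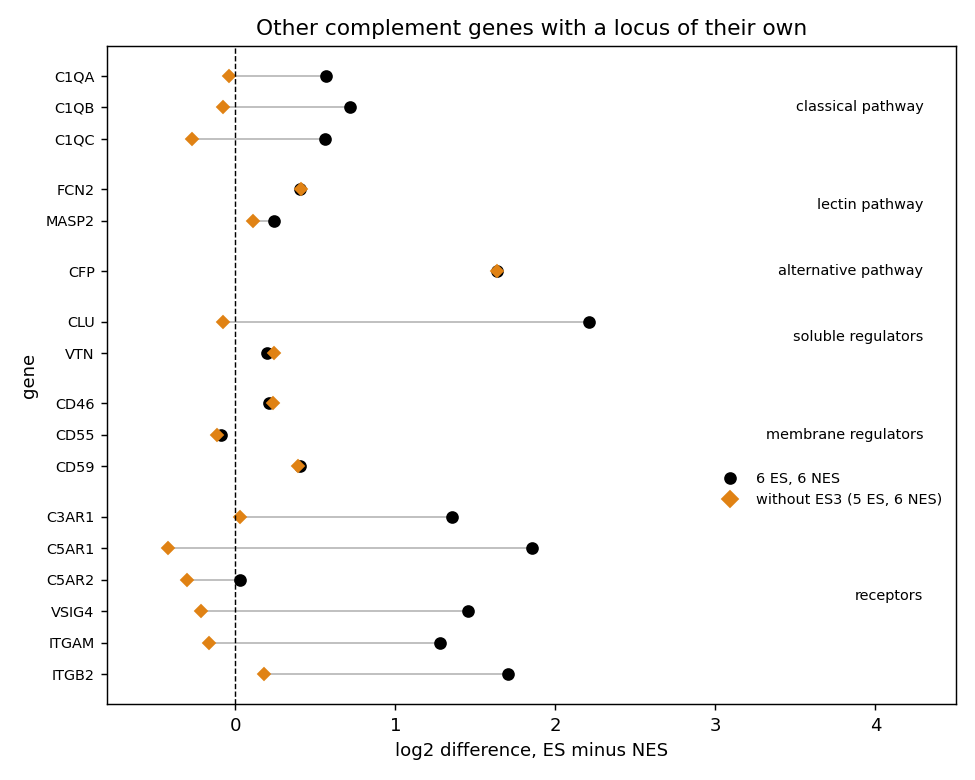
The log2 difference (ES minus NES, edgeR) of the 17 further complement genes tested, grouped by role, with black points for all 12 libraries and orange diamonds for the fit without ES3. Receptors other than C5AR2, C1q chains and CLU moved towards or past 0 without ES3, and FCN2, CFP, VTN and the membrane regulators stayed near their place. C5AR2 moved away from 0, from 0.03 to -0.30.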

How the data were processed

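Strand-specific libraries were built from ribosome-depleted total RNA, per the labels' protocols. The build Sscrofa11.1 and the tools HISAT2, TopHat, cutadapt and FastQC are listed, with no role, in the submitters' processing notes. How reads were assigned to loci, and with which strand setting, is not given in the sources used here. Raw counts and FPKM per locus were deposited, per the file headers, and FPKM was normalised by the authors for length and depth.

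Members were matched by the table's gene name, then by Ensembl identifier in a name table (1036 of 5465 bare identifiers matched) and by the NCBI gene number in the table's description (585 more). Of several loci the one with the highest mean count was used. edgeR 4.0.16 (quasi-likelihood, TMM, no covariate) was fitted to the 20421 loci whose mean FPKM was 0.5 or more, with adjustment over all of them. Loci to which no symbol was matched hold 6.84% to 9.12% of a library's counts, and stayed in the fit as they have an identifier and coordinates. The SE is the log2 difference divided by the square root of F. Alternatives used DESeq2 1.42.0 and limma 3.58.1 in R 4.3.3, and all 3 tools were tested on simulated counts with known changes. That simulation held no outlying library such as ES3, and limma was run on CPM there, not on FPKM. Profiles are log2(CPM + 0.05), centred per locus. Named genes were the 9 members, the 2 genes of each role with the smallest p, the 2 nearest profiles per member and marker genes. Others, among them C1QC, C5AR1, CD55 and C6, were chosen after their values were seen. Members and lists were chosen with earlier results of these data known. Libraries of a group differed by far more than counting noise (chi-square of at least 86.7 per locus). Each group holds separate gilts, and the title numbers were not used as pairs, since the labels do not say that they mark litters. Of the cell type lists, those of lymphocytes, epithelium, stroma, luteal cells and the interferon response had median log2 differences of 0.73, 3.10, 0.20, 1.44 and 0.84 and no called member, as did the endothelial (0.27) and oocyte lists (-0.19). The red blood cell and hepatocyte lists had 1 tested gene each, ALAS2 (0.44) and APOA1 (0.71), and neither was called. The granulosa (-0.95) and theca lists (-1.47) had 1 and 2 called members. All 4 tested epithelial genes (CDH1, CLDN4, UPK3B and FOXJ1) passed the filter only through ES. So did ZAP70 and IL7R of the 3 tested lymphocyte genes, and RSAD2 and CXCL10 of the interferon list. OOSP2 of the oocyte list passed only through NES. The medians of these lists are thus not used as support. FOXJ1 had an ES median of 0.0741 CPM, below its NES median of 0.185 CPM.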

Additional observations from a re-analysis of the deposited data

Results flagged for a closer look

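Of 16 sets of 6 values (8 loci in 2 groups), 2 held a library farther from the others than Dixon's 95% limit allows, and chance alone gives about 1 in 20. Both were ES3. C3 stood there at 902 CPM, with the next highest ES library at 179 CPM, and C2/CFB stood at 35.9 CPM, with the next at 11.5 CPM. The summed macrophage and monocyte markers of ES3 were 1085 CPM, and their part in these values was not tested.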

How the results depend on the processing

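None of the 24 alternatives called any of the 8 complement loci, and 7 loci kept a positive log2 difference in all of them. Of the 24, the choice of loci by highest mean FPKM reused the main fit and could not differ from it. Summing the loci of a symbol changed the counts of C7 only. With 1 library left out C5 ran from -0.15 to 0.26. It reversed to 0.16 without ES3, 0.01 without NES4, 0.26 without NES5 and 0.18 without ES3 and ES6 together, and could not be fitted with a minimum mean FPKM of 1. Without ES3 and ES6 together C3 stood at 0.03. With the replicate number as a block C3 had 0.58 and C1S 0.51 (adjusted p = 0.233), and no call on a member changed. Under the block the unadjusted p was 0.150 for C2/CFB and 0.0327 for C1R (edgeR). Same-numbered libraries had correlated deviations of -0.04 to 0.23, and 3 of 6 ES libraries correlated best with their own number. DESeq2 called 1 of the further pathway genes, CFP, which passed the filter only through ES. Over all loci, the 193 calls became 1055 with DESeq2 (461 higher, 594 lower), 337, 334 and 319 with limma at pseudocounts of 0.5, 0.1 and 1, 28 without a filter, 1 without ES3 and ES6 together and 0 with the replicate block. With 1 library left out they ran from 0 (without any 1 of NES1, NES3, NES4, NES5, ES2, ES4 and ES6) to 415 (without NES6). The cause was not tested. With 6 libraries a group, the 95% intervals of all loci but SERPING1 reach folds above 1.5, so a p that misses the threshold does not show equal levels.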

Other observations

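A further row named C7 (MSTRG.9589, chromosome 16, 25840608 to 25846858) lies on the minus strand and overlaps the start of the C7 locus over 3651 bases. It held 1.93% as many counts as the C7 locus, averaged 9.39 ± 7.13 CPM in ES, against 7.73 ± 2.92 CPM in NES, and differed by a log2 of 0.28 ± 0.49 (adjusted p = 0.822, edgeR).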
